A study of Mus musculus with 3 samples.

Results

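Tubulin transcripts were followed through the stromal cell states of mouse subcutaneous fat. The members were a list of 10 genes, the alpha-tubulin genes Tuba1a, Tuba1b, Tuba1c and Tuba4a and the beta-tubulin genes Tubb2a, Tubb2b, Tubb3, Tubb4b, Tubb5 and Tubb6, out of 32285 genes in the count tables. All 10 passed the filter on low counts in each fit. The stromal vascular fraction of the subcutaneous inguinal depot of 3 wild-type male C57BL/6J mice, 8 weeks old, was depleted by sorting of CD31+ endothelial cells and CD45+ leukocytes, and 1 droplet library of single cells was made per mouse. There was 1 condition with no treatment, no transgene and no altered allele, so states of cells were compared within each mouse and no groups of mice were compared. The filter asked for over 500 genes per cell and under 5% of unique molecular identifiers (UMIs, which count captured RNA molecules) from mitochondrial genes, and left 12984, 6414 and 15179 cells in mice 1, 2 and 3. They were placed in classes by their raw UMIs, the same gates in every mouse. A progenitor had at least 3 UMIs of Dpp4 and Pi16 together and at most 1 of Icam1 and Fabp4 together. A preadipocyte had at least 4 UMIs of Icam1 and Fabp4 together and at most 1 of Dpp4. A regulatory cell had at least 1 UMI each of Clec11a and Fmo2, at most 1 of Fabp4 and at most 1 of Dpp4. The gates took 19841 progenitors, 5561 preadipocytes and 1058 regulatory cells. Within each class, cells with at least 3 UMIs of Ptx3, the gene of the secreted pattern-recognition protein pentraxin 3, were set against cells with none.

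Microtubules are hollow polymers of alpha- and beta-tubulin dimers that carry organelles and vesicles, shape the cell and build the mitotic spindle. Each subunit comes from several genes, called isotypes, whose proteins differ mainly in their last residues, the part of the tubulin surface where modifying enzymes and motors bind. Adipogenesis, the change of a fibroblast-like cell into a round lipid-filled one, is known to come with rebuilding of actin and microtubules. Tuba1a, Tubb2b and Tubb3 are best known from neurons, Tubb5 and Tuba1b are abundant in dividing cells, Tubb6 is a divergent isotype found outside the nervous system, and Tubb4b is widespread and abundant in cells with cilia.

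Libraries differed in depth. The kept cells held 94816520, 78108414 and 99328725 UMIs in mice 1, 2 and 3, with a median of 7392.5, 12192.5 and 6667 UMIs per cell, so that mouse 2 gave the fewest and deepest cells. No doublet caller was run, and cells that passed 2 gates (49, 119 and 96) were left out. Any pair of libraries shared between 52 and 81 cell barcodes, and leaving those cells out moved no count of called genes or members by more than 1.5 times. Among class markers that took no part in the gates, all 6 tested progenitor markers, among them Cd55 and Wnt2, were higher in progenitors than in preadipocytes, all 6 tested preadipocyte markers, among them Pparg and Cd36, were lower, and all 5 tested regulatory markers were higher in regulatory cells than in either other class. The regulatory cells of mouse 3 also held 212 UMIs of 7 epithelial and mesothelial markers, against 0 and 2 UMIs in mice 1 and 2. Markers of vessel cells also moved with the classes. In progenitors 5 of 6 tested endothelial markers were lower than in preadipocytes, and 5 of 7 mural markers were lower and 2 higher. In regulatory cells 3 endothelial markers were lower than in preadipocytes, and 4 mural markers were lower and 1 higher. The 7 endothelial markers summed to between 2.61 and 8.55 CPM in progenitors, 4.2 and 60.9 in preadipocytes and 4.6 and 5.68 in regulatory cells, and the 7 mural markers to between 23.4 and 33.7, 70.9 and 109.6, and 54.1 and 106 CPM. Without cells that held at least 2 endothelial or 3 mural UMIs, the tubulins called in the class comparisons numbered 7, 3 and 5, with no call of a single tubulin lost or gained. Of 5 tested Schwann and nerve markers, 2 were higher and 3 lower in progenitors than in preadipocytes. In regulatory cells 1 was lower than in preadipocytes, and 2 were higher and 2 lower than in progenitors. The part of such cells in the tubulin levels was not tested.

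Near-identical copies limit what a short 3′ read can tell of some members. The transcript annotation used was GENCODE M21 on GRCm38, with the longest coding transcript per gene. Tuba1a (chromosome 15, 98949837 to 98953703, minus strand), Tuba1b (98931425 to 98934565, minus strand) and Tuba1c (99029891 to 99038110, plus strand) are neighbours of 4 exons each. Their coding sequences were identical at 98.3% of aligned positions for Tuba1a and Tuba1b, 97.9% for Tuba1b and Tuba1c and 97.1% for Tuba1a and Tuba1c. Tubb2a (chromosome 13, 34074274 to 34078007) and Tubb2b (34126748 to 34130466) shared 96.5%. Over the last 500 bases of the transcript, where 3′ libraries are read, identity fell to between 60.0% and 70.7% among the Tuba1 genes and to 45.1% for Tubb2a and Tubb2b.

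**Figure D1:**
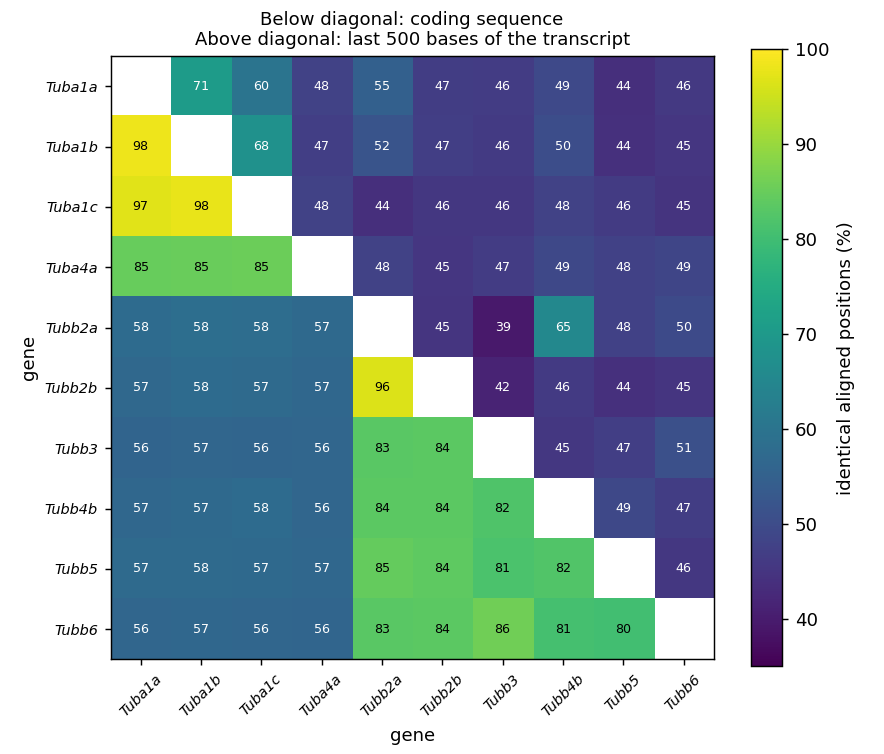
Identical aligned positions (in percent, colour and digits) between each pair of the 10 tubulin genes, with the coding sequence below the diagonal and the last 500 bases of the transcript above it. The Tuba1 genes stand out at 97% to 98% below the diagonal, and no pair exceeds 71% above it.

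Exact copies were counted in windows of 90 bases. Of the windows in the last 500 bases, 52.1% of those of Tuba1a, 60.1% of Tuba1b and 65.0% of Tuba1c were also found in the transcript of another gene, which was another Tuba1 gene or one of several pseudogenes. The share was 25.8% for Tubb2a, through Tubb2b and a Tubb2a pseudogene, and 12.7% for Tubb4b, through pseudogenes. It was 0 for Tubb2b, Tubb3, Tubb5, Tubb6 and Tuba4a. A read that maps to several genes alike is normally not counted by Cell Ranger. The levels of Tuba1a, Tuba1b, Tuba1c and in part Tubb2a and Tubb4b are thus uncertain. The other members shared no window of their last 500 bases with another annotated transcript. Over its whole transcript, Tubb2b shared 29.5% of its windows, with Tubb2a and the Tubb2a pseudogene. The annotated gene Gm49450 overlaps exons of Tuba1a and Tuba1b on the same strand, which can also remove reads from both. Whether Gm49450 and the pseudogenes are among the genes of the count tables was not checked. How many reads were lost, if any, is therefore not known, also for Tubb4b, which shared windows with pseudogenes only.

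The promoters of 4 members are shown. Of these, Tuba1c, Tubb4b and Tubb2a are higher below in preadipocytes with Ptx3, and their windows held 0 annotated exon bases. Tuba1a and Tubb3 are also higher there but had windows that overlapped exons, and Tubb6, higher too, had no matched entry. The fourth, Tubb5, is the beta-tubulin gene that was most raised in cycling cells. They are the 250 bases before the RefSeq start site (GRCm38.p6), printed 5′ to 3′ on the gene's own strand. RefSeq entries were matched for 8 of the 10 members. Capitals mark the CCAAT box (CCAAT), the GC box (GGGCGG), the cAMP response element TGACGTCA and the TATA box (TATAAA), each searched on both strands.
Tuba1c (chr15:99029641-99029890, plus strand): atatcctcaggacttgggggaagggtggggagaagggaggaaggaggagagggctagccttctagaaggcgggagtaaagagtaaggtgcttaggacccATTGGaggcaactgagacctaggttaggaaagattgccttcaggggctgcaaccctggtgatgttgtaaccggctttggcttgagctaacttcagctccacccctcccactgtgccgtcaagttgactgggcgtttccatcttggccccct
Tubb4b (chr2:25224703-25224952, minus strand): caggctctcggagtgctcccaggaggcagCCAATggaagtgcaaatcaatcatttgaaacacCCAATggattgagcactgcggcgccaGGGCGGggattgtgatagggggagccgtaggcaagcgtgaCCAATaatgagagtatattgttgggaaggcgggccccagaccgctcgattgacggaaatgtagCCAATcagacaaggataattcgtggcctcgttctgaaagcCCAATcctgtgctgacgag
Tubb2a (chr13:34078009-34078258, minus strand): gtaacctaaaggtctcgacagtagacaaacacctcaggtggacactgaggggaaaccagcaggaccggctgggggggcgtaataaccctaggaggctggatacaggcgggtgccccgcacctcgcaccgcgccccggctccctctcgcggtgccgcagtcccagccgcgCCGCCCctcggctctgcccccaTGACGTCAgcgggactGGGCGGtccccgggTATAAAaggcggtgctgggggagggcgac
Tubb5 (chr17:35838302-35838551, minus strand): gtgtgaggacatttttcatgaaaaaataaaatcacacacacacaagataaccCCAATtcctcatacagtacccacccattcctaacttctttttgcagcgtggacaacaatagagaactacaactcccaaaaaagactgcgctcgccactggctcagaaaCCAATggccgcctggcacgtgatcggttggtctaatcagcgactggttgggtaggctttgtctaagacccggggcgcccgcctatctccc
Tubb4b held 5 CCAAT boxes, Tubb5 held 2 and Tuba1c held 1, and 33.8% of 32851 mouse promoters of the same length held at least 1. Tubb2a held 1 cAMP response element, which 1.55% of promoters held, and 1 TATA box, which 12.4% held. The GC box was found in 32.7% of promoters, and it overlaps none of the other motifs in the 4 printed windows. No match to the AP-1 motif (TGANTCA, 6.75% of promoters), the CArG box (1.47%) or the NF-kB motif (7.25%) was found in the 8 members. The windows of Tuba1a, Tuba1b, Tuba4a, Tubb3 and, by 5 bases, Tubb5 overlapped annotated exons, so they were not upstream sequence alone. These matches describe letters in a window and nothing more.

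Levels are given as CPM, the UMIs of a gene per 1000000 UMIs of the same sum, where a sum is all kept cells of 1 class in 1 mouse. A 3′ count is taken once per molecule and is not divided by length. The share of reads that near-identical copies can remove differs between the members. Levels are therefore compared between classes within a gene and not between genes. Among alpha-tubulins, Tuba1a was at 478, 628 and 414 CPM in the progenitors of mice 1, 2 and 3, at 780.1, 1182 and 705 in preadipocytes and at 692, 735 and 484 in regulatory cells. Preadipocytes were highest in each mouse, and their values did not overlap those of progenitors. Tuba1b was at 159, 235 and 124 CPM in progenitors, 151, 233 and 130.3 in preadipocytes and 169, 226 and 146 in regulatory cells. In Tuba1b the mice differed more than the classes did. Tuba1c was at 36.1, 70.5 and 37.8 CPM in progenitors, 33.8, 59.9 and 37.4 in preadipocytes and 29.5, 58.7 and 33.1 in regulatory cells, with mouse 2 the highest in each class. Tuba4a, known from muscle and platelets, was scarce, at 5.93, 8.6 and 7.78 CPM in progenitors, 2.34, 5.63 and 3.98 in preadipocytes and 4.21, 7.3 and 8.27 in regulatory cells, where it rested on 6, 27 and 16 UMIs.

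**Figure D2:**
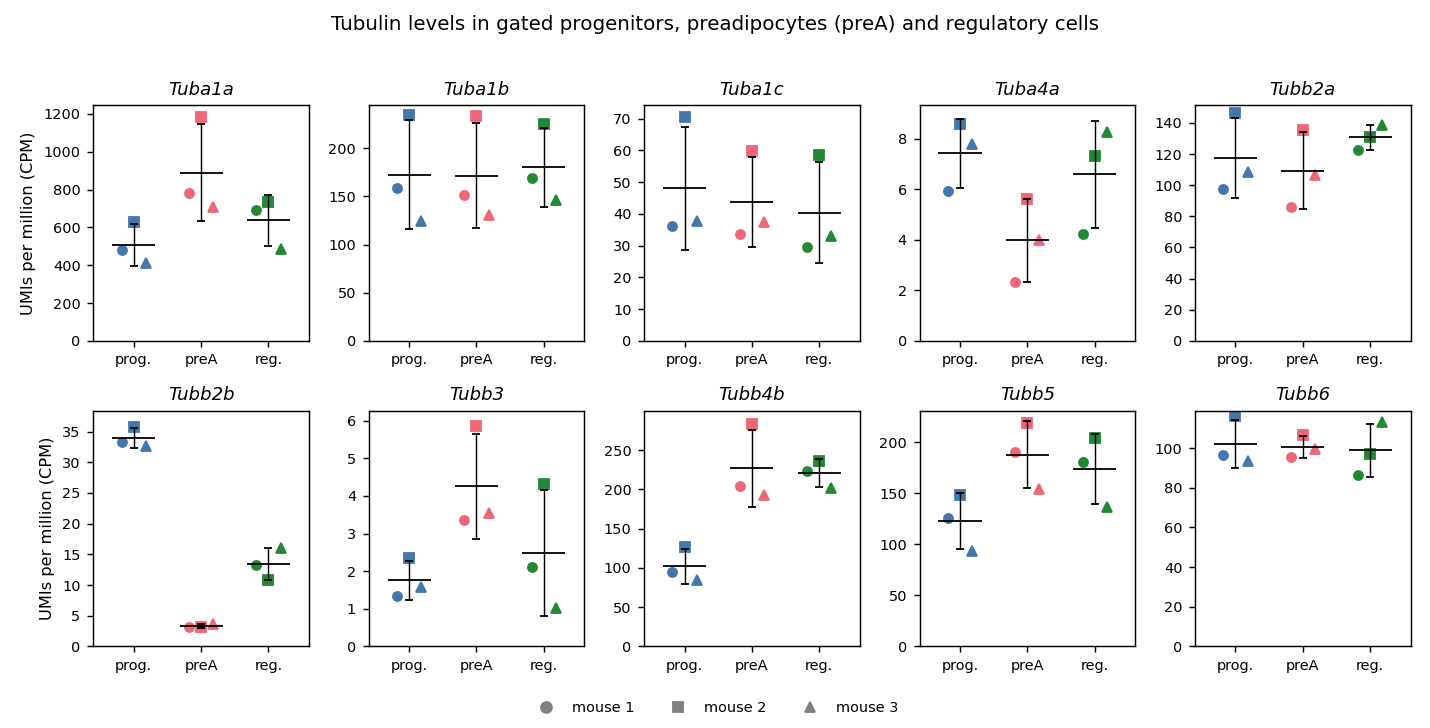
Level of each of the 10 tubulin genes in CPM (linear axis from 0) in the gated progenitors, preadipocytes (preA) and regulatory cells. Points are the 3 mice, horizontal lines the means and bars the SD over mice. Tubb2b is lowest in preadipocytes in every mouse, whereas Tuba1a, Tubb4b and Tubb5 are lowest in progenitors.

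Among beta-tubulins, Tubb2b had the widest range. It was at 33.3, 35.7 and 32.7 CPM in progenitors, 13.3, 10.8 and 16.0 in regulatory cells and 3.15, 3.17 and 3.68 in preadipocytes, so the 3 classes did not overlap. Its near-twin Tubb2a was at 97.3, 146 and 108 CPM in progenitors, 86.0, 135 and 107 in preadipocytes and 123, 131 and 139 in regulatory cells, and all of these ranges overlap. Tubb4b was at 94.3, 127 and 84.3 CPM in progenitors, 204, 283 and 193 in preadipocytes and 224, 236 and 202 in regulatory cells. Progenitors were below both other classes, which overlapped each other. Tubb5 was at 126, 148 and 93.7 CPM in progenitors, 190.1, 219 and 154 in preadipocytes and 180.4, 205 and 137 in regulatory cells, the same order within each mouse. Tubb6 was at 96.7, 116 and 93.7 CPM in progenitors, 95.5, 106 and 99.8 in preadipocytes and 86.4, 97.1 and 113 in regulatory cells, with no order that held in all mice. Tubb3 was at 1.34, 2.35 and 1.59 CPM in progenitors, 3.37, 5.85 and 3.54 in preadipocytes and 2.11, 4.33 and 1.03 in regulatory cells, the last from 3, 16 and 2 UMIs. Of all UMIs of the 10 genes, Tuba1a took between 41.4% and 42.4% in progenitors and between 49.1% and 52.9% in preadipocytes, and Tubb2b took between 2.35% and 3.27% and between 0.142% and 0.256%.

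The classes were compared in 1 edgeR quasi-likelihood fit over 13257 genes, with the mouse as a block. A gene is called when its p-value, adjusted over all of them by the Benjamini-Hochberg method, is under 0.05. The 3 comparisons share sums with each other. Between progenitors and preadipocytes 7 of the 10 tubulins were called, 3 higher and 4 lower in progenitors, against 56.3% of all genes, 29.2% higher and 27.2% lower. The members' share was thus near that of the background, and the members differed from each other in the size of their changes. Tubb2b was higher in progenitors by 3.41 on the log2 scale (standard error, SE, 0.112, adjusted p = 1.80e-10), or 10.6-fold, in 3 of 3 mice. It ranked 442 by absolute change among the genes tested, and the other called members ranked between 2167 (Tubb3) and 9494 (Tuba1c). Tuba4a was higher by 0.99 (SE 0.153, adjusted p = 0.000141). Tubb4b was lower by 1.10, a log2 fold change of -1.10 (SE 0.0812, adjusted p = 1.91e-07), and Tubb3 was at -1.21 (SE 0.179, adjusted p = 9.60e-05). Tuba1a was at -0.74 and Tubb5 at -0.57, with adjusted p of 1.98e-05 and 3.89e-06. These 6 changes had the same sign in each mouse, and the CPM of the mice did not overlap, as for 43.6% of all genes. Tuba1c was called at 0.17 (adjusted p = 0.0256), but its ranges overlapped and without mouse 1 or without mouse 2 it was no longer called (adjusted p = 0.11 and 0.271). Tuba1b, Tubb2a and Tubb6 had log2 fold changes of 0.06, 0.16 and 0.07 with SEs of 0.0678, 0.0932 and 0.0783, and did not pass.

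Regulatory cells had 2 tubulins higher and 1 lower than preadipocytes, against 25.7% of all genes called, with 12.3% higher and 13.4% lower. Tubb2b was higher in regulatory cells by 2.00 (SE 0.195, adjusted p = 1.08e-05), in 3 of 3 mice and without overlap, as for 27.4% of all genes. Tuba1a had a log2 fold change of -0.42 (SE 0.0945, adjusted p = 0.0062). Its call was lost without mouse 2 (-0.29, adjusted p = 0.112) and without mouse 3 (-0.39, adjusted p = 0.0674). Tuba4a, at 0.76 (adjusted p = 0.0475), was no longer called when any 1 mouse was left out. Tubb2a was not called (0.30, SE 0.11, adjusted p = 0.064) and was higher in 2 mice and lower in 1. It was called in 8 of 16 alternatives, among them without mouse 2 (0.51, adjusted p = 0.00597). The call of Tuba4a was lost in 9 of the 16. Tubb4b and Tubb5 had log2 fold changes of 0.02 and -0.07 with SEs of 0.0885 and 0.0659. Against progenitors, 3 members were higher in regulatory cells and 2 lower, beside 43% of all genes called, 19% higher and 24% lower. The CPM of the mice did not overlap for Tubb2b and Tubb4b, as for 38.4% of all genes. Tubb4b was higher by 1.12 (SE 0.0892, adjusted p = 8.58e-07), Tubb5 by 0.51 (SE 0.0657, adjusted p = 5.62e-05) and Tuba1a by 0.33 (SE 0.0943, adjusted p = 0.0146), each in 3 of 3 mice. Tubb2b was lower, with a log2 fold change of -1.41 (SE 0.143, adjusted p = 7.02e-06), and so was Tuba1c at -0.25 (adjusted p = 0.032), which lost its call without any 1 of the mice. Tubulins were thus called in both directions in each of the 3 comparisons. Over the members the median log2 fold change was 0.07, 0.02 and 0.11 in these comparisons, and over all genes it was -0.0044, -0.04 and -0.05.

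Cells just inside and just outside a gate are given to show what it divides. At 4 UMIs of Icam1 and Fabp4, just inside the preadipocyte gate, Tubb4b was at 207, 229 and 214 CPM in mice 1, 2 and 3, and at 3 UMIs, just outside, at 205, 248 and 168 CPM. At 3 UMIs of Dpp4 and Pi16, just inside the progenitor gate, Tubb2b was at 14.0, 7.08 and 16.4 CPM, and at 2 UMIs, just outside, at 9.23, 15.8 and 9.05 CPM. Cells at the edge of the progenitor gate stood below the progenitor level of Tubb2b as a whole in each mouse.

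The members were then compared within each class by Ptx3, a gene that marks one of the preadipocyte subpopulations that the study describes. The 18 sums of 3 mice, 3 classes and both Ptx3 levels were tested in 1 edgeR fit over 12429 genes. In preadipocytes 6 of 10 tubulins were called higher in cells with at least 3 Ptx3 UMIs and none lower, against 19.6% of all genes, 12% higher and 7.59% lower. For 2 of these, Tuba1c and Tubb6, the rise was already known from an earlier comparison of the same mice, so their values in preadipocytes are descriptions, given without p, and they do not count against the background. Of the other 8 members 4 were called higher, Tubb3, Tubb4b, Tuba1a and Tubb2a, and their median log2 fold change was 0.42, beside -0.0039 over all genes. Scaled by library size alone, the median of all genes in this comparison was -0.15 on the log2 scale, and the split of called genes went from 1493 higher and 943 lower (61.3% higher) to 856 higher and 2260 lower (27.5% higher). The 6 tubulins kept their direction under that scaling too, and Tubb2a and Tubb3 were then not called.

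Tuba1c, an alpha-tubulin of many tissues, was at 23.6, 39.3 and 22.6 CPM in preadipocytes without Ptx3, at 25.0, 47.9 and 30.7 with 1 or 2 UMIs and at 47.6, 95.1 and 50.6 with 3 or more. It was thus higher in each mouse by 2.01-, 2.42- and 2.24-fold, and the ends of the range did not overlap. Tubb6 was at 71.9, 71.0 and 69.0 CPM without Ptx3, 85.6, 81.4 and 81.5 in between and 123, 169.6 and 129 at 3 or more. The fitted log2 fold changes were 1.32 (SE 0.0962) for Tuba1c and 1.13 (SE 0.121) for Tubb6. Most of the difference lay between 1 or 2 UMIs and 3 or more. Tubb4b was at 171, 232 and 145 CPM without Ptx3, 184, 255 and 171 in between and 246, 371 and 235 at 3 or more. These 3 genes did not overlap between the ends of the range, as for 23.9% of all genes. The rise of Tubb4b was 0.78 (SE 0.102, adjusted p = 1.44e-05). Tuba1a was at 694, 1073 and 620.0 CPM without Ptx3 and at 899, 1369.5 and 783 at 3 or more, a log2 fold change of 0.50 (SE 0.0976, adjusted p = 0.00102) with ratios from 1.26 to 1.30 in the 3 mice. Tubb2a went from 82.0, 123 and 95.6 to 90.8, 146 and 117 CPM (log2 fold change 0.38, SE 0.0979, adjusted p = 0.00937). Its call was lost without mouse 3 (0.36, adjusted p = 0.0599). Tubb3 went from 1.91, 5.19 and 2.51 to 5.26, 6.76 and 3.3 CPM, from 14, 45 and 11 UMIs against 40, 42 and 21. The Tubb3 call (0.86, SE 0.267, adjusted p = 0.028) was lost when any 1 mouse was left out. Tuba1b, Tubb5, Tuba4a and Tubb2b were not called, with log2 fold changes of 0.15, 0.10, 0.29 and 0.46 and SEs of 0.08, 0.0869, 0.247 and 0.298.

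**Figure D3:**
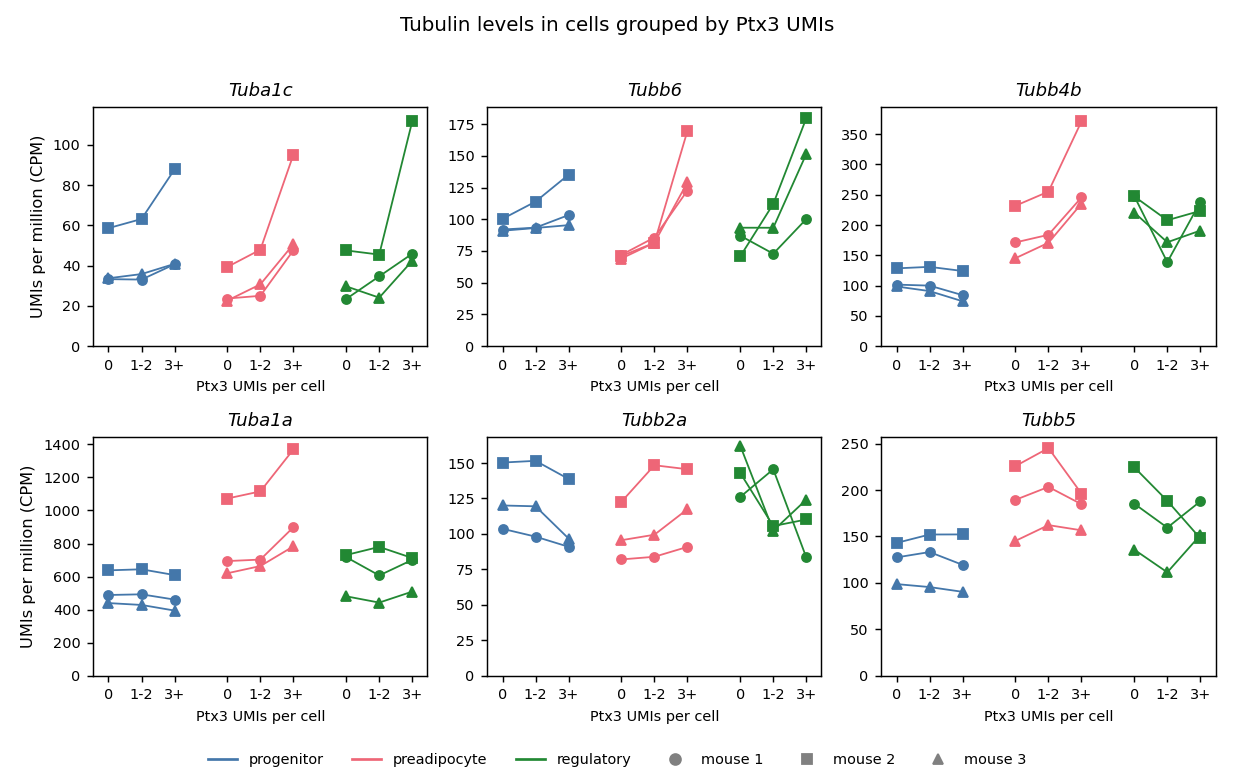
Level of 6 tubulin genes in CPM (linear axes from 0) against the Ptx3 UMIs per cell (0, 1 to 2, or 3 and more), with 1 line per mouse and class. In preadipocytes Tuba1c, Tubb6, Tubb4b, Tuba1a and Tubb2a are higher at 3 or more than at 0 in each mouse, in progenitors and in regulatory cells Tuba1c and Tubb6 are, and Tubb5 has no common direction.

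The same split in progenitors and regulatory cells called fewer genes. In progenitors 1 of 10 tubulins was higher at 3 or more Ptx3 UMIs and none lower, against 1.87% of all genes called, 1.49% higher and 0.378% lower. No tubulin was without overlap between the Ptx3 levels in progenitors, beside 6.77% of all genes. The called gene was Tuba1c, at 33.3, 58.6 and 33.7 CPM without Ptx3 and 40.7, 87.8 and 40.9 at 3 or more (log2 fold change 0.44, SE 0.0775, adjusted p = 0.00349, higher in 3 of 3 mice). The level of mouse 2 stood above both others at each Ptx3 level, and the call was lost without mouse 3 (0.50, adjusted p = 0.0546). Tubb6 was at 91.9, 100.3 and 90.9 against 103, 135 and 95.3 CPM, higher in each mouse, but was not called (0.27, SE 0.109, adjusted p = 0.316). Tubb4b, Tubb2a and Tuba1a had log2 fold changes of -0.20, -0.16 and -0.06 in progenitors, with SEs of 0.1, 0.0898 and 0.0968, and none was called. In regulatory cells 2 of 10 tubulins were higher and none lower, against 1.99% of all genes called, 1.59% higher and 0.402% lower. All member calls in progenitors and regulatory cells fell on Tuba1c or Tubb6, whose rise in preadipocytes was already known. No other member was called in either class, so the members' share above the background rests on these genes alone. Tuba1c was at 23.4, 47.5 and 29.7 CPM without Ptx3 and 45.9, 112 and 42.4 at 3 or more (log2 fold change 1.09, SE 0.187, adjusted p = 0.00252), where its counts were 11, 74 and 28 UMIs. Tubb6 went from 87.0, 70.7 and 93.3 to 100.1, 179.6 and 151 CPM (log2 fold change 0.99, SE 0.195, adjusted p = 0.00768), without overlap, as for 13.9% of all genes. Both rose in each mouse, most in mouse 2, and without mouse 2 neither was called (0.72, adjusted p = 0.426 for Tuba1c, and 0.61, adjusted p = 0.206 for Tubb6). Tubb6 also lost its call without mouse 3 (1.04, adjusted p = 0.106) and with Ptx3 of 1 or more UMIs taken as high (0.70, adjusted p = 0.0604). Tubb2a was lower without overlap, at 83.4, 110.2 and 124 against 126, 143 and 162 CPM, but was not called (-0.33, SE 0.16, adjusted p = 0.396). Regulatory cells with 3 or more Ptx3 UMIs numbered 37, 62 and 117, and in them Tubb3 had 0, 3 and 0 UMIs. Their median was 6925, 11349 and 5462 UMIs, against 4618.5, 9685 and 3991.5 in regulatory cells without Ptx3. The part of depth in this split was not tested, since the thinned cells below kept the same gates and Ptx3 levels. Of 5 tested regulatory markers outside the gates, 2 were lower with Ptx3 in regulatory cells and 0 higher. The 3 tested epithelial and mesothelial markers had a median log2 fold change of -8.89, with 0 called. The gate genes Fmo2 and Clec11a had means of 831 and 433 CPM without Ptx3, and 598 and 346 at 3 or more UMIs. The part of these differences in the tubulin values was not tested.

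**Figure D4:**
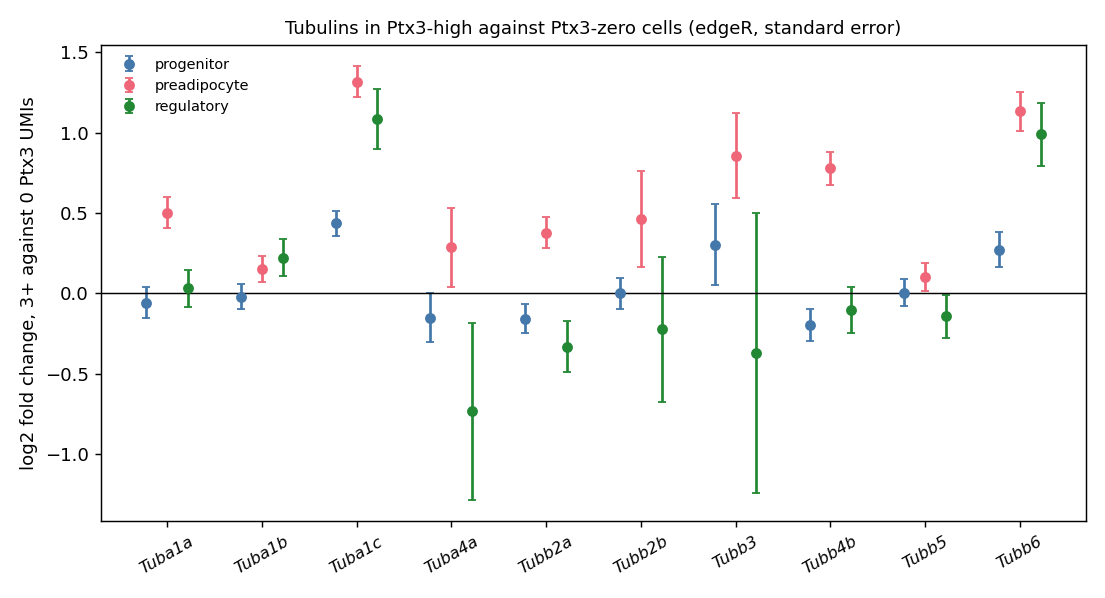
Fitted log2 fold change of each tubulin gene between cells with 3 or more Ptx3 UMIs and cells with none, per class. Bars are 1 standard error, derived from the F statistic of the edgeR test. Tuba1c lies above 0 in all 3 classes, whereas Tubb4b lies at 0.78 in preadipocytes, -0.20 in progenitors and -0.10 in regulatory cells. The regulatory Tubb3 point rests on sums of 0, 3 and 0 UMIs at the high level and is no fold.

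Whether the Ptx3 difference itself differed between classes was tested as an interaction in the same fit. Leaving aside Tuba1c and Tubb6, whose preadipocyte values were known, the difference was smaller in progenitors than in preadipocytes for 3 of 8 tubulins and larger for none, beside 2.8% of all genes called, 2.47% in that direction and 0.33% in the other. Tubb4b had the largest gap, -0.97 on the log2 scale (SE 0.143, adjusted p = 0.00093). With Ptx3 its level was higher in the preadipocytes and lower in the progenitors of each mouse. The gap was -0.56 for Tuba1a (SE 0.137, adjusted p = 0.0296) and -0.54 for Tubb2a (SE 0.133, adjusted p = 0.0313). For Tuba1c and Tubb6 it was -0.88 and -0.86 (SEs 0.124 and 0.162), given without p. Without mouse 3, Tubb4b (-0.86, adjusted p = 0.0744), Tuba1a (-0.54, adjusted p = 0.333) and Tubb2a (-0.45, adjusted p = 0.303) were not called. Tuba1a also lost its call without mouse 2 (-0.56, adjusted p = 0.0501), and Tubb2a without mouse 1 (-0.58, adjusted p = 0.0875). Between regulatory cells and preadipocytes 0 of 10 tubulins differed in edgeR, and 1 gene of 12429 was called (0.00805%), with 942 at an unadjusted p under 0.05. In DESeq2 28 genes were called, 2 of them tubulins, Tubb4b (-0.84, adjusted p = 0.00281) and Tubb2a (-0.68). The edgeR value of Tubb4b was -0.88 (SE 0.176, adjusted p = 0.0868).

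The cells at either side of the Ptx3 limit differed less in Tuba1c than the ends of the range. Preadipocytes with exactly 3 Ptx3 UMIs had Tuba1c at 27.5, 39.3 and 36.1 CPM in mice 1, 2 and 3, from 84, 24 and 75 cells, and those with 2 had 21.4, 50.8 and 32.7 CPM. Tubb6 was higher at 3 in each mouse (114, 95.5 and 100.3 against 73.6, 79.0 and 83.5 CPM). Tubb4b was higher in mice 1 and 3 and lower in mouse 2. Tubb5, not called between the ends, was at 223, 326 and 163 CPM at 3 and 185, 209 and 160 at 2. Depth went with the split in a small way. Preadipocytes with 3 or more Ptx3 UMIs had a median of 8377, 13553.5 and 7439.5 UMIs, and those without had 7846, 12585 and 7148.5. After each cell was thinned to 3000 UMIs, Tubb4b, Tuba1a and Tubb2a remained called in preadipocytes, beside the known Tuba1c and Tubb6. Tubb3 in preadipocytes lost its call, and so did Tuba1c in regulatory cells (0.70, adjusted p = 0.521). Gates and Ptx3 levels were still set on the full UMIs. Apart from leaving out cells under 3000 UMIs, thinning thus did not change which cells stood in each group. The part of depth in that choice was not tested. Markers of the classes and of other cells also went with the Ptx3 split. Of 6 tested preadipocyte markers outside the gates, 3 were lower with Ptx3 and 0 higher. Of 6 tested progenitor markers, 3 were higher and 0 lower. The gate gene Fabp4 had a mean of 1631 CPM without Ptx3 and 1128 at 3 or more UMIs, and Icam1 had 478 and 546. The part of this in the tubulin differences was not tested. All 6 tested endothelial and 4 of 7 mural markers were lower with Ptx3. The 7 endothelial markers summed to between 5.49 and 122 CPM in preadipocytes without Ptx3 and to between 2.20 and 6.18 CPM at 3 or more, with at most 1 and 2 of them at 0, and the 7 mural markers to between 79.8 and 140 and between 58.3 and 81.1 CPM, with none at 0. A choice made after the data were seen left out cells that held at least 2 endothelial or 3 mural UMIs. In preadipocytes Tubb4b, Tuba1a and Tubb2a then stayed called, beside the known Tuba1c and Tubb6, and Tubb3 was lost (0.67, adjusted p = 0.128). The interaction with progenitors held for Tubb4b, beside the known Tuba1c and Tubb6. It was lost for Tuba1a (-0.51, adjusted p = 0.0544) and Tubb2a (-0.48, adjusted p = 0.0553). What else these cells contribute was not tested.

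Several tubulins are known to rise in dividing cells, and this was seen in the few cycling cells here. Kept cells with at least 10 UMIs over 21 cell cycle genes, 17, 37 and 9 cells of the 3 mice, were set beside cells with none. Tubb5 was at 1126, 1530.2 and 1858 CPM in them, against 144, 159.9 and 106 CPM in cells with none. That is 7.83-, 9.57- and 17.5-fold more, and Tuba1b was 5.72-, 5.68- and 8.3-fold higher. Tuba1c was higher 3.96-, 3.13- and 2.92-fold and Tubb6 4.01-, 3.24- and 2.6-fold. Tubb4b was higher 3.07-, 3.58- and 7.56-fold, whereas Tuba1a differed 1.05- to 1.38-fold. These cells were chosen by their cycle genes and are described without a test. In the Ptx3 split of preadipocytes, Tubb4b, Tuba1c and Tubb6 were higher and Tubb5 and Tuba1b were not called. The cell cycle list summed to between 65.2 and 93.5 CPM at 3 or more Ptx3 UMIs and to between 65.4 and 145 CPM without, with 0 of its 17 tested genes called. Every cell with at least 2 cell cycle UMIs was then left out. Tubb4b, Tubb3, Tuba1a and Tubb2a stayed called in that split, beside the known Tuba1c and Tubb6. In the interaction with progenitors Tubb2a lost its call (-0.47, adjusted p = 0.0644). In regulatory cells 8 of 21 cell cycle genes were lower than in preadipocytes and 11 lower than in progenitors, with 0 higher. Of all genes 13.4% and 24% were lower there. Without cycling cells, Tuba1c lost its call between regulatory cells and progenitors (-0.19, adjusted p = 0.113). Between regulatory cells and preadipocytes Tuba4a lost its call (0.58, adjusted p = 0.149) and Tubb2a gained one (0.32, adjusted p = 0.0291).

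Other genes of the microtubule system were counted from lists chosen with earlier results of these data known. Among other tubulins, 4 of 10 were tested between progenitors and preadipocytes, and Tubb4a, a beta-tubulin known from myelin-forming cells, was at 29.5, 40.4 and 37.7 CPM in progenitors and 1.79, 2.02 and 2.43 in preadipocytes (log2 fold change 4.16, adjusted p = 6.32e-11). Tubg2 was also higher, and Tubd1 and Tubg1, the gamma-tubulin that nucleates microtubules, were lower. Of 34 tested genes of microtubule binding and dynamics, 13 were higher in progenitors and 6 lower, and shares here are to be read against the 29.2% of all genes that were higher and the 27.2% that were lower. Stmn4, a stathmin that sequesters tubulin dimers, was at 113, 96.6 and 139 CPM in progenitors and 6.47, 2.57 and 7 in preadipocytes (4.53, adjusted p = 1.58e-10). Kif2a, a kinesin that takes microtubules apart, was at 249, 131 and 214 against 52.5, 24.0 and 46.0 CPM (2.36, adjusted p = 3.00e-10), and Clasp2, which binds growing ends, was higher by 1.48. For Tubb4a, Stmn4, Kif2a and Clasp2 each progenitor value lay above each preadipocyte value. Motors were higher in progenitors for 10 of 20 tested genes, led by the kinesins Kif1c (1.06) and Kif1b (0.77), and lower for 1. The folding chaperones and cofactors gave 3 higher and 4 lower of 23, the modifying enzymes 5 and 4 of 14 and the gamma-tubulin ring complex 3 and 1 of 11. The medians of the binding, motor, folding, modification and ring complex lists lay between -0.02 and 0.23, beside -0.0044 over all genes.

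In regulatory cells against preadipocytes, microtubule binding genes gave 4 higher and 7 lower of 34, folding genes 2 and 6 of 23 and motors 1 and 3 of 20, and no modifying enzyme was called, where 12.3% of all genes were higher and 13.4% lower. Doublecortin-like kinase Dclk1 (-0.86, adjusted p = 2.51e-05) and the chaperonin subunit Cct5 (-0.52, adjusted p = 0.0003) were lower, and the tubulin folding cofactor Tbcc was higher (0.96, adjusted p = 0.00353). Against progenitors, regulatory cells had Tubb4a lower by 3.51, a log2 fold change of -3.51, and Stmn4 at -4.08. Microtubule binding genes were lower for 15 of 34 and higher for 4, and motors lower for 11 of 20 and higher for 2, where 24% of all genes were lower and 19% higher.

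In the Ptx3 split of preadipocytes, microtubule binding genes were higher for 9 of 32 tested and lower for none. Stmn4 was at 5.19, 1.85 and 4.34 CPM without Ptx3 and 7.76, 3.38 and 9.9 at 3 or more (1.04, SE 0.278, adjusted p = 0.0114). Map1b and Map7d1, which bind along microtubules, were higher by 0.65 and 0.50, and Katna1, the catalytic subunit of the severing enzyme katanin, by 0.47. Their share lay above the 12% of all genes that were higher, though no test of the list was made. Folding genes gave 2 higher and 1 lower of 23, motors 2 and 0 of 20, modifying enzymes 1 and 0 of 14 and the gamma-tubulin ring complex 0 and 1 of 11. Actin genes gave 9 higher and 3 lower of 20, with the focal adhesion gene Zyx at 0.60 and the contractile genes Tpm2, Tagln and Tpm1 at -1.95, -1.90 and -0.71, in the samples in which the mural list was also lower. Of 20 immediate early genes, 7 were higher and 3 lower, led by Fosl1 (2.18) and Myc (1.24). In the same split of progenitors and of regulatory cells, no gene of the other tubulin, folding, modification, binding, motor or ring complex lists was called in edgeR. Of all genes, only 1.87% and 1.99% were called there. In the interaction of progenitors with preadipocytes, 1 of 32 binding genes was called and no gene of the other 5 lists, beside 2.8% of all genes.

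The 3 members with the widest range of log2(CPM + 1) over the 18 sums were Tubb2b (3.46), Tubb3 (2.96) and Tubb4b (2.31). The genes with the most similar pattern over the 18 sums, once the mean of each mouse was taken off, among 5484 genes (5483 for Tubb4b) with a mean of at least 20 CPM, are given as a description. For Tubb2b they were Pmepa1, Sema3d and Ablim1 (Pearson's r of 0.979, 0.974 and 0.973). Pmepa1 was at 288, 377 and 295 CPM in progenitors, 179.7, 223 and 205 in regulatory cells and 89.7, 131 and 111 in preadipocytes, the order of Tubb2b. For Tubb4b they were Map4k4, Gem and Lmna (0.943, 0.941 and 0.940). For Tubb3 they were Vcp, Zc3h7a and Tap2 (0.930, 0.869 and 0.846), but Tubb3 had 0 UMIs in 2 of the sums, and these set much of its range. The sums share mice and classes and are not independent.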

How the data were processed

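Single-cell 3′ libraries of 3 mice were used, grouped per the labels as 3 wild-type replicates. The deposited matrices hold the authors' raw UMI counts from Cell Ranger, 1 per gene and barcode, without normalization. The submitters' processing notes name Cell Ranger 2.1.1 and mm10, while the matrix headers name version 4.0.0, so the version is uncertain. The aligner settings for reads that map to several genes are not given in the sources used here.

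Members and gene lists were chosen with earlier results of these data known. Cells were gated on raw UMIs (python 3.11.15, numpy 2.4.6, pandas 2.3.3) and counts were summed per mouse, class and Ptx3 level, with at least 20 cells per sum. Sums were tested in edgeR 4.0.16 (R 4.3.3; filterByExpr, TMM, quasi-likelihood, mouse as a block, Benjamini-Hochberg over all genes, threshold 0.05). The 7 gate genes were kept in the totals and left out of the tests. CPM are untransformed shares of a sum, and log2 fold changes are TMM-scaled. The SE of an edgeR log2 fold change was derived as its absolute value divided by the square root of the quasi-likelihood F statistic. Classes of a mouse come from 1 animal, and the mouse was checked as a pairing: deviations of a mouse's sums correlated across 13257 genes with Pearson's r of at least 0.25, 0.538 and 0.343 in mice 1, 2 and 3. On simulated data both the class comparison and the Ptx3 comparison in preadipocytes called more unchanged genes than their nominal rate. Between progenitors and preadipocytes 26 unchanged genes were called, beside 58 and 83 of 100 genes changed 1.5- and 2-fold. In the Ptx3 comparison these numbers were 12, 54 and 79. Apart from the changed genes, the simulated sums held no class or Ptx3 difference, whereas 56.3% and 19.6% of genes were called in the 2 real comparisons. The share of unchanged genes among the calls can therefore differ in the real data. Member calls near the threshold and the shares of all genes called are thus less certain. All members were named, with up to 4 called genes per list and comparison by largest change. Genes alike to a member were the 3 of highest Pearson r. Sex and strain are shared by all mice. P-values rest on the spread that is left between sums once the level of each of the 3 mice is taken off, pooled over the groups of a fit. Both Ptx3 levels of a class in 1 mouse form a pair, but only the mouse was a block.

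Alternatives were library size and DESeq2 scaling, no low-count filter, DESeq2 1.42.0, no block, each mouse left out, cells of 5000 to 15000 UMIs, thinning to 3000 UMIs, leaving out cycling cells or the deepest 5% of cells, keeping cells of 2 gates, a mitochondrial limit of 10%, and Ptx3 of 1 or more. Leaving out shared barcodes or cells with endothelial or mural UMIs was added after the data were seen. Sequences were compared with Biopython 1.88. Figures were drawn with matplotlib 3.10.9.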

Additional observations from a re-analysis of the deposited data

Results flagged for a closer look

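For Tubb4b, Tuba1a and Tubb2a the Ptx3 difference itself differed between progenitors and preadipocytes by the interaction term of the fit, and Tuba1c and Tubb6 are given beside them as descriptions. The log2 fold change between cells with at least 3 Ptx3 UMIs and cells with none, taken in progenitors minus preadipocytes, was -0.97 for Tubb4b (edgeR adjusted p = 0.00093), -0.56 for Tuba1a (edgeR adjusted p = 0.0296) and -0.54 for Tubb2a (edgeR adjusted p = 0.0313). It was -0.88 for Tuba1c and -0.86 for Tubb6, whose preadipocyte values were known from an earlier comparison and carry no p. Without mouse 3, Tubb4b, Tuba1a and Tubb2a all lost their calls (edgeR adjusted p = 0.0744, 0.333 and 0.303). Over 17 alternatives the call was lost in 2 for Tubb4b, in 7 for Tuba1a and in 7 for Tubb2a.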

How the results depend on the processing

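Of the values of single tubulins under the alternatives, 1239 kept their side of the threshold, 75 lost their call, 16 gained one and 0 reversed while called. Among the 1239, 57 changed sign while called in neither fit, and the rest kept their direction. The causes below were not tested unless the setting removes samples or genes by construction. The comparisons are named in this order: progenitor against preadipocyte (A), regulatory against preadipocyte (B), regulatory against progenitor (C), Ptx3 in progenitors (D), in preadipocytes (E) and in regulatory cells (F), and the Ptx3 difference in progenitors minus preadipocytes (G) and in regulatory cells minus preadipocytes (H).

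Without the mouse as replicate block, the pairing was lost and the genes called fell to 3992, 1530, 3128, 2, 352, 22, 0 and 0 in A to H, and the tubulins called to 1 in B, 2 in C, 0 in D, 1 in E, 0 in F and 0 in G. With each mouse left out in turn, genes called ranged from 6117 to 6632 in A, 2059 to 2807 in B, 4176 to 4802 in C, 63 to 190 in D, 1003 to 1895 in E, 71 to 233 in F, 43 to 214 in G and 0 to 2 in H. Tubulins called ranged from 6 to 7, 1 to 2, 4 to 5, 0 to 1, 4 to 5, 0 to 2, 1 to 4 and 0 to 0. Fewest genes were called without mouse 3 in D and G and without mouse 2 in B, E and F, and fewest tubulins without mouse 3 in B, D, E and G and without mouse 2 in F. Tubulin counts in E and G include Tuba1c and Tubb6, whose preadipocyte values were known.

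Without the low-count filter 564 genes and 2 tubulins were called in D, 580 genes in F, 818 in G, and 146 genes and 3 tubulins in H. Thinning to 3000 UMIs gave 2099 genes in B, 1174 in E, 127 genes and 1 tubulin in F, 226 genes in G and 8 in H. Taking Ptx3 of 1 or more as high gave 77 genes in D, 1330 in E, 75 genes and 1 tubulin in F, 144 genes and 3 tubulins in G and 0 genes in H. DESeq2 called 487 genes in F, and 28 genes and 2 tubulins in H. Cells of 5000 to 15000 UMIs gave 163 genes in F and 0 in H. Scaling by library size left 3 tubulins in G. In H, where 1 gene was called, library size, DESeq2 size factors, keeping cells of 2 gates, leaving out the deepest 5% and leaving out endothelial or mural UMIs gave 0, and leaving out cycling cells and a mitochondrial limit of 10% gave 3. Leaving out cells with endothelial or mural UMIs, chosen after seeing the data, left 3 tubulins in G. Wherever 3 tubulins are given for G, they were Tubb4b and the known Tuba1c and Tubb6. Under thinning or the window of 5000 to 15000 UMIs, calls were lost for Tuba1c in A, C and F, for Tuba4a in B, for Tubb3 in E and for Tuba1a in G. Under thinning Tubb2a gained a call in B (0.41, edgeR adjusted p = 0.00843).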
